A study of Mus musculus with 2 samples.

Results

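The 39 genes described here carry glucose into the cell and break it down to pyruvate and lactate, and the set also holds the enzymes that store glucose as glycogen, release it again, or send it into the pentose phosphate pathway. They were taken by symbol from a table of 22740 genes: 38 were found by their own symbol, and Pkm2 was found as Pkm, for which RefSeq lists it as a synonym. The table comes from whole uteri of 2 independent C57BL/6 mice, labelled WT, on day 4 of pregnancy, with 1 sequencing library per mouse, called uterus 1 and uterus 2. No treatment, mutant or other day was compared, so the questions these data can answer are how abundant each transcript was and how far the 2 animals differed. RNA was extracted from whole tissue, so epithelium, stroma, muscle, vessels, blood cells and any embryos were pooled in each value, and fewer cells of a type and less RNA per cell cannot be told apart.

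In glycolysis, glucose enters through SLC2A carriers, is trapped as glucose 6-phosphate by a hexokinase, and is split into triose phosphates that are oxidised to pyruvate with a net gain of ATP. Pyruvate then enters the mitochondria or is reduced to lactate, which leaves through monocarboxylate carriers. On this day of mouse pregnancy the blastocyst is about to attach, the endometrium carries glycogen, and glucose use rises as stromal cells turn into decidua.

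All values are RPKM, reads scaled to transcript length and library size, as the authors deposited them. The low values were nearly all whole multiples of the value of a single read, from which the reads behind each gene were estimated, up to a common whole factor chosen from the annotated length. They summed to 3780163 in uterus 1 and 4198855 in uterus 2, or 3484345 and 3871805 with the smallest reads possible, so a gene at 1 RPKM rests on only a few reads. Markers of the tissue were present: Krt18, an epithelial keratin, at 70.4 and 94.3 RPKM, the stromal collagen Col3a1 at 1908 and 1939, the smooth muscle actin Acta2 at 653 and 592, the endothelial Pecam1 at 50.7 and 50.9, and the macrophage lysozyme Lyz2 at 218 and 236. At the low end of those lists stood Wnt7a at 1.64 and 1.63, Hand2 at 33.3 and 39.5, Cnn1 at 146 and 158, and Tek at 16.8 and 17.5. Of other sources, the highest and lowest markers were Alas2 at 6.85 and 6.53 with the globins listed at 0 for red cells, Fabp4 at 1.63 and 0.367 with Adipoq at 0 for fat, and Ovgp1 at 5.78 and 9.31 with Zp3 at 0 for ovary and oviduct. For the blastocyst they were Gata6 at 3.84 and 3.60 with Cdx2 at 0, and for decidua Alpl at 2.38 and 2.33 with Prl8a2 at 0. The 0 of the globins may be a failed estimate. Of their windows of 50 bases, 53.2% for Hba-a1, 71.7% for Hba-a2 and 43.9% for Hbb-b2 were found elsewhere in the genome. The 5 gland markers, from Spink3 at 46.4 and 71.8 to Prss28 at 0.877 and 0.987, were all higher in uterus 2, with a summed RPKM of 57.0 in uterus 1 and 88.4 in uterus 2. None of the 5 passed the read test described below.

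Of the 39 genes, 35 reached 1 RPKM in both uteri, against 58.4% of all genes in the table. Levels of 10 RPKM or more in both were reached by 20 members and by 30.4% of all genes, and 100 RPKM by 5 members and 1.92% of all genes. Of these 5, Aldoa and Ldha have levels that rest on an unsettled transcript length, as described below. The median member stood at 12.6 RPKM in uterus 1 and 12.01 in uterus 2, beside 3.28 and 3.23 for the median gene. The members together made up 0.374% of the summed RPKM in uterus 1 and 0.363% in uterus 2. Pkm, Gapdh, Ldha, Aldoa and Tpi1 held 53.7% and 54.0% of that member total. Only 1 member, Eno1, was listed at 0 in both uteri, as were 23.4% of all genes. The plot of members by role places the carriers and enzymes along the pathway.

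**Figure D1:**
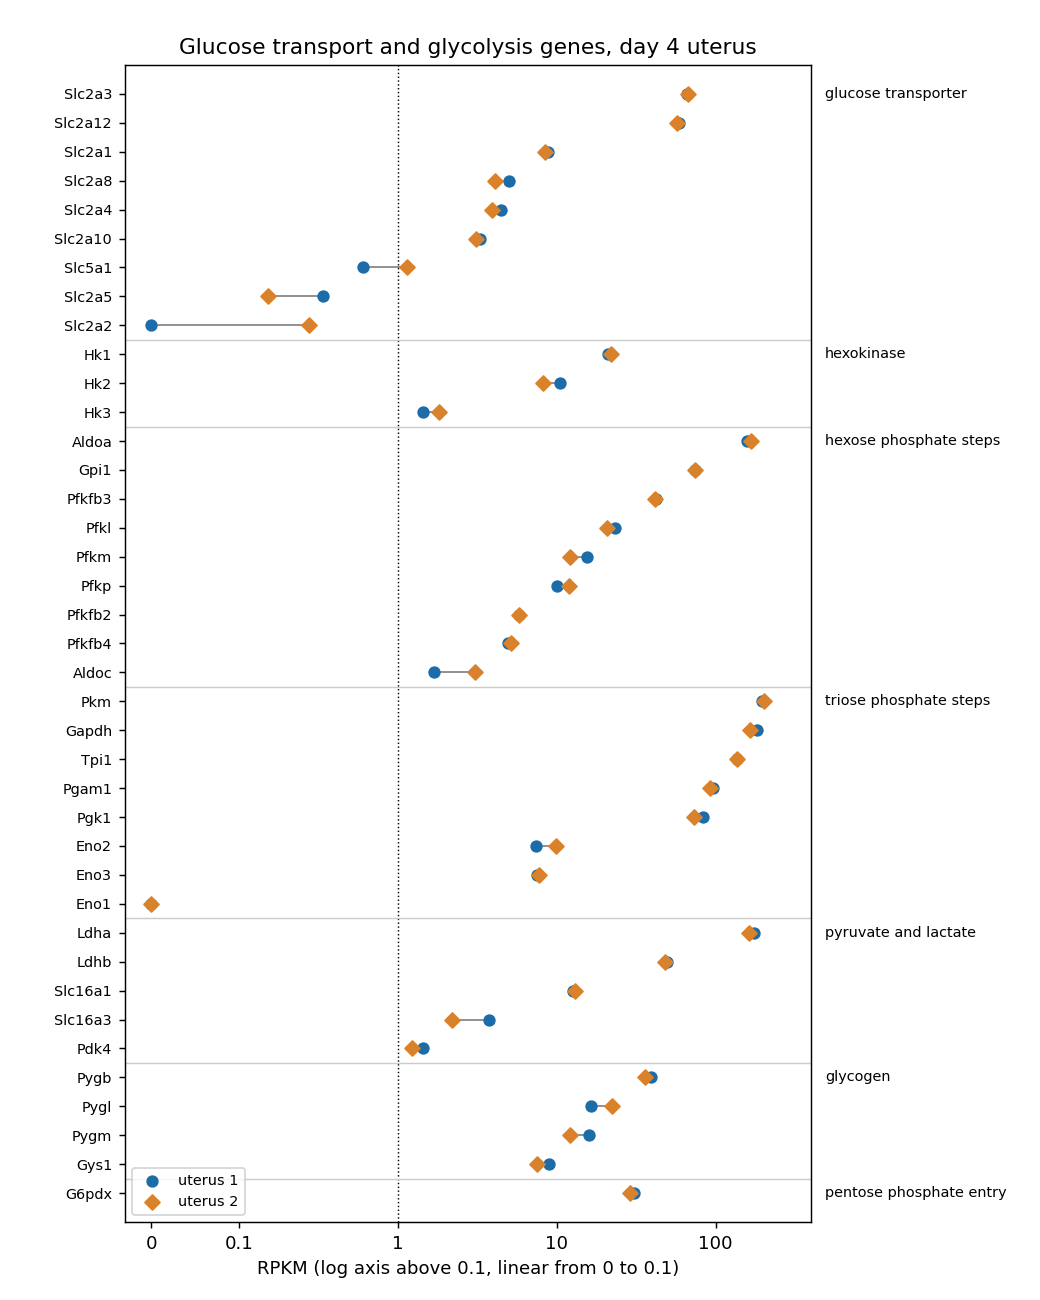
RPKM of each of the 39 genes in uterus 1 (circles) and uterus 2 (diamonds), grouped by role and ordered by level; the axis is logarithmic above 0.1 and linear below, and the dotted line marks 1 RPKM. Slc2a3 and Slc2a12 stand above the other carriers, the triose phosphate enzymes are among the highest, and Eno1 sits at 0 in both uteri.

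Much of the sequence of the most abundant members is not unique to them. Glycolytic genes are known for processed pseudogenes, copies of the spliced message inserted elsewhere in the genome, and a short read from a copied stretch cannot be placed by its letters alone. How the authors placed such reads is not given in the sources used here. The annotated transcript of each gene was therefore cut into windows of 50 bases, and each window was looked up in the whole genome of build NCBIM37 (mm9) outside the gene's own exons. The coding windows below are shown because each occurs letter for letter elsewhere. They are printed 5′ to 3′ on the gene's strand, all in lower case because no base of them stands out.
Gapdh (chr6:125112915-125112964, - strand, exon 4 of 7, found at 82 other places): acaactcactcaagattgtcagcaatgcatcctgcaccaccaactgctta
Pgam1 (chr19:41990098-41990147, + strand, exon 2 of 4, found at 3 other places): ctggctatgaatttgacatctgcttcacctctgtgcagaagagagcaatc
Eno1 (chr4:149620738-149620787, + strand, exon 8 of 12, found at 2 other places): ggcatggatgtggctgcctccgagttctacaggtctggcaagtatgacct
Pkm (chr9:59516809-59516858, + strand, exon 5 of 11, found at 4 other places): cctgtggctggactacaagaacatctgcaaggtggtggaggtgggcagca
Ldha (chr7:54104397-54104446, + strand, exon 3 of 8, found at 3 other places): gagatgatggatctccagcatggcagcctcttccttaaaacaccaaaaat

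Pgk1, the first ATP-forming kinase of the pathway, had 92.9% of its windows elsewhere. The share was 91.9% for Pgam1, the phosphoglycerate mutase, 85.6% for Gapdh and 72.2% for the enolase Eno1. Pkm had 41.4%, Ldha 33.8%, Ldhb 33.6%, Gpi1 31.4%, Tpi1 23.7% and Aldoa 15.2%, followed by G6pdx at 7.65%. In all, 10 of 39 members (25.6%) had more than 10% of their windows elsewhere, against 3088 of the 20588 genes with an annotated transcript. The carriers, hexokinases, phosphofructokinases, bifunctional regulators and glycogen enzymes had few copied windows or none. In the plot of copied sequence against level, the 10 genes with the most copied windows run from a mean of 48.7 RPKM for Ldhb to 198 for Pkm, apart from Eno1, while no other member is above Slc2a3 at 66.9. With windows of 36 bases the share was 52.9% for Ldha, 31.6% for Aldoa and 57.1% for Pkm. With windows of 100 bases it was 1.88% for Ldha and 0% for Aldoa, 85.1% for Gapdh, 89.8% for Pgk1, 87.1% for Pgam1 and 59.0% for Eno1.

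**Figure D2:**
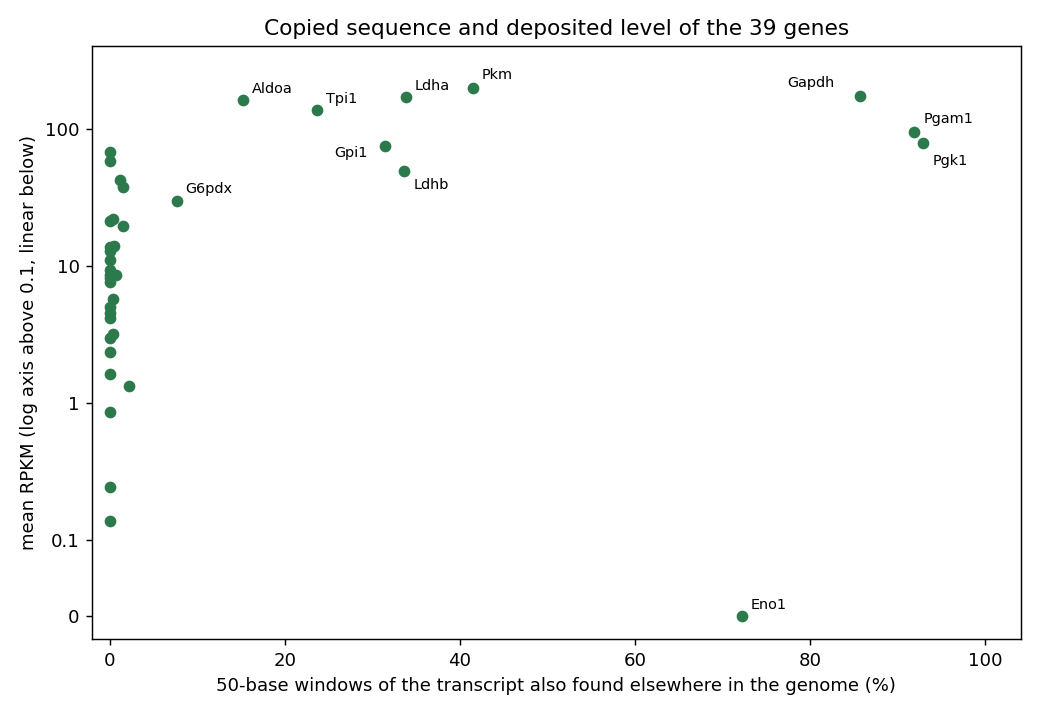
Each point is 1 of the 39 genes; the horizontal axis gives the percent of its 50-base windows found elsewhere in the genome, the vertical axis its mean RPKM (logarithmic above 0.1, linear below). Gapdh, Pgam1 and Pgk1 have both high levels and mostly copied sequence, and Eno1 at 72.2% is listed at 0.

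Eno1, at chr4:149611306-149622982 in mm9, encodes the enolase most tissues use, and it was listed at 0 RPKM in both uteri. A 0 in this table is a listed value and may be a failed estimate. The copy Gm5506, which RefSeq names Eno1b, was listed at 0.229 and 0.276 RPKM. Among all genes, 16.7% of those with no window elsewhere were listed at 0 in both uteri, 45.5% of those with 10 to 50%, a class that holds Pkm, Ldha, Ldhb, Gpi1, Tpi1 and Aldoa, 44.2% of those with 50 to 90%, and 67.4% of the 144 genes with more than 90%. Pgk1 and Pgam1, in the last of these classes, were nonetheless listed on 574 and 681 reads in uterus 1. Whether read placement set the 0 of Eno1 was not tested.

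Among the carriers, Slc2a3 and Slc2a12 were by far the most abundant. Slc2a3, at chr6:122677827-122692763, encodes GLUT3, a high-affinity carrier best known from neurons and the placenta. It stood at 66.4 RPKM in uterus 1 and 67.4 in uterus 2, on 1008 and 1136 reads, or 66.9 ± 0.717 (SD, n = 2). Slc2a12, at chr10:22364817-22423686, encodes GLUT12, an insulin-responsive carrier of muscle and fat, and stood at 58.7 and 57.4 RPKM. Slc2a1 encodes GLUT1, the general carrier that stromal cells are known to raise during decidualization. It stood at 8.82 and 8.40 RPKM, on 87 and 92 reads. Slc2a3 was thus 7.53 times as high as Slc2a1 in uterus 1 and 8.02 times in uterus 2. Slc2a3 and Slc2a12 together held 82.4 ± 0.744% (SD, n = 2) of the summed RPKM of the 12 facilitative carriers in the table.

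The next carriers were low and close together. Slc2a8, an intracellular carrier, stood at 5.01 and 4.06 RPKM, and Slc2a4, the insulin-regulated GLUT4, at 4.44 and 3.91, so Slc2a8 was the higher in each animal while the ranges overlapped. Slc2a10, mutated in arterial tortuosity syndrome, stood at 3.27 and 3.09 RPKM. The sodium-coupled carrier Slc5a1 stood at 0.597 and 1.14 RPKM, on 9 and 19 reads. Slc2a5, the fructose carrier, stood at 0.337 and 0.152 RPKM on 4 and 2 reads. Slc2a2, the carrier of liver and pancreatic islets, was listed at 0 in uterus 1, where 3 reads would have made 0.304 RPKM, and at 0.274 on 3 reads in uterus 2. The order from Slc2a3 through Slc2a12 and Slc2a1 to Slc2a8 was the same in both uteri with no overlap of values.

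Of the other hexose transporters on the list, 7 of 14 reached 1 RPKM in both uteri. Slc50a1, a sugar carrier of the SWEET family, stood at 26.03 and 20.2 RPKM, Slc37a4, the glucose 6-phosphate transporter of the endoplasmic reticulum, at 11.01 and 11.2, and Slc5a11, which carries inositol, at 11.5 and 9.74. Slc2a7, Slc5a4a and Slc5a4b were listed at 0 in both.

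The hexokinases commit glucose to the cell. Hk1, the broadly expressed form, stood at 20.9 and 21.8 RPKM, and Hk2, the form of muscle and of many tumours, at 10.5 and 8.19. Hk1 held 65.3 ± 3.34% (SD, n = 2) of the family's RPKM and Hk2 28.5 ± 4.31%, and Hk1 was higher in both animals. Hk3, best known from myeloid cells, stood at 1.44 and 1.80 RPKM. Beside it, all 6 leukocyte markers had reads, with a sum of 272 and 290 RPKM that is mostly Lyz2, and the 4 neutrophil markers summed to 2.27 and 3.49, from S100a8 at 1.33 and 1.20 down to Elane at 0. Their part in Hk3 was not tested.

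Glucose 6-phosphate is isomerised by Gpi1, which stood at 74.0 and 74.3 RPKM. Phosphofructokinase, the main control point of glycolysis, is a tetramer of 3 kinds of subunit, and all were present. The liver-type subunit Pfkl stood at 23.2 and 20.7 RPKM, the muscle-type Pfkm at 15.6 and 12.01, and the platelet-type Pfkp at 9.95 and 11.97. Pfkl was the highest in both uteri, with 47.0 ± 0.860% (SD, n = 2) of the family, while Pfkm and Pfkp lay apart in uterus 1 and level in uterus 2. The bifunctional PFKFB enzymes make and remove the allosteric activator of phosphofructokinase. Pfkfb3, whose kinase activity far exceeds its phosphatase activity, stood at 42.4 and 41.5 RPKM and held 77.6 ± 0.198% (SD, n = 2) of that family. Pfkfb2 followed at 5.75 and 5.76, and Pfkfb4 at 4.89 and 5.10.

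Aldoa, the aldolase of muscle and most other tissues, stood at 157 and 167 RPKM, and Aldoc, the aldolase of brain, at 1.69 and 3.04 on 11 and 22 reads. An RPKM value fixes reads and length only up to a common whole factor, and for Aldoa and Ldha this factor could not be settled. The smallest that fits for Aldoa is 365 and 433 reads on 608 bases, against an annotated transcript of 1511 bases, and 3 times both gives 1824 bases, which lies nearer. For Ldha the smallest is 650 and 662 reads on 965 bases against an annotated 1588, and 2 times both gives 1930. Whether the deposited levels of Aldoa and Ldha lie above or below their levels per annotated length therefore cannot be told. For Pfkfb2 the smallest length is 9621 bases, already 217% of the annotated 4425, and per annotated length its mean of 5.76 RPKM becomes 12.5 or more. No other member had a multiple nearer its annotated length than the one used.

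The triose phosphate steps hold 3 of the 5 members above 100 RPKM. Pkm, which encodes the pyruvate kinase that closes glycolysis, stood at 195 and 201 RPKM, on 1948 and 2223 reads. Its muscle and embryonic splice forms share a gene and cannot be told apart at gene level. Gapdh, the oxidising step, stood at 182 and 165 RPKM, and Tpi1, the triose phosphate isomerase, at 137 and 136. Pgam1 stood at 96.95 and 92.5 RPKM and Pgk1 at 83.1 and 73.6. The liver and red-cell pyruvate kinase Pklr was listed at 0.0931 and 0. Pgam2, the muscle mutase, stood at 2.02 and 1.30. The order Pkm, Gapdh, Tpi1, Pgam1, Pgk1 was the same in both uteri.

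With Eno1 listed at 0, the enolases with reads were the tissue-restricted forms. Eno2, known from neurons, stood at 7.43 and 9.82 RPKM, and Eno3, known from muscle, at 7.48 and 7.76. Both stood below Pgam1, the step before them, and Pkm, the step after them. Beside Eno2, all 7 neuron and glia markers had reads, summing to 7.55 and 7.52 RPKM, with Snap25 lowest at 0 and 0.222. Beside Eno3, the 8 skeletal muscle markers summed to 83.0 and 97.8 RPKM, nearly all of it Acta1 at 78.4 and 89.4. Tnnt3 stood at 2.56 and 5.66 RPKM and Ckm at 2.03 and 2.66. Myh1 and Myh4 had 1 read each over the 2 uteri, and Myh2, Mb and Myog were at 0 in both. The part of these cells in either enolase was not tested.

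Pyruvate is turned to lactate by lactate dehydrogenase. Ldha, the subunit that favours lactate formation, stood at 176 and 161 RPKM, and Ldhb, the heart-type subunit, at 49.5 and 47.9. Ldha was 3.55 times as high in uterus 1 and 3.36 times in uterus 2. Both ratios rest on the length the authors used for Ldha, which is not known here. It held 77.5 ± 0.599% (SD, n = 2) of the family. Slc16a1, which encodes the lactate carrier MCT1, stood at 12.6 and 12.95 RPKM. Slc16a3, the exporter MCT4 of highly glycolytic cells, was lower, at 3.74 and 2.19 on 37 and 24 reads. Their chaperone basigin, Bsg, whose loss is known to block implantation, stood at 118 and 116 RPKM, and its relative Emb at 40.1 and 43.1. Slc16a7, another carrier of this family, stood at 2.48 and 2.91.

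The other fate of pyruvate is oxidation. Pdk4, a kinase that shuts the pyruvate dehydrogenase complex, stood at only 1.44 and 1.22 RPKM. Its relative Pdk3 stood at 28.0 and 26.9 and held 65.0 ± 1.74% (SD, n = 2) of the kinase family, against 3.14 ± 0.176% for Pdk4. Of 15 genes on the list for pyruvate entry, 14 reached 1 RPKM in both uteri. The most abundant were the carboxylase Pcx at 55.4 and 55.0, and the dehydrogenase subunits Pdha1 at 52.8 and 56.3 and Pdhb at 43.9 and 43.0. The testis form Pdha2 was listed at 0. The plot of paralogue shares shows which isoenzyme led 8 of the families. In the enolases, which are not drawn, the lead differed between the uteri, with Eno3 at 50.2% in uterus 1 and Eno2 at 55.9% in uterus 2.

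**Figure D3:**
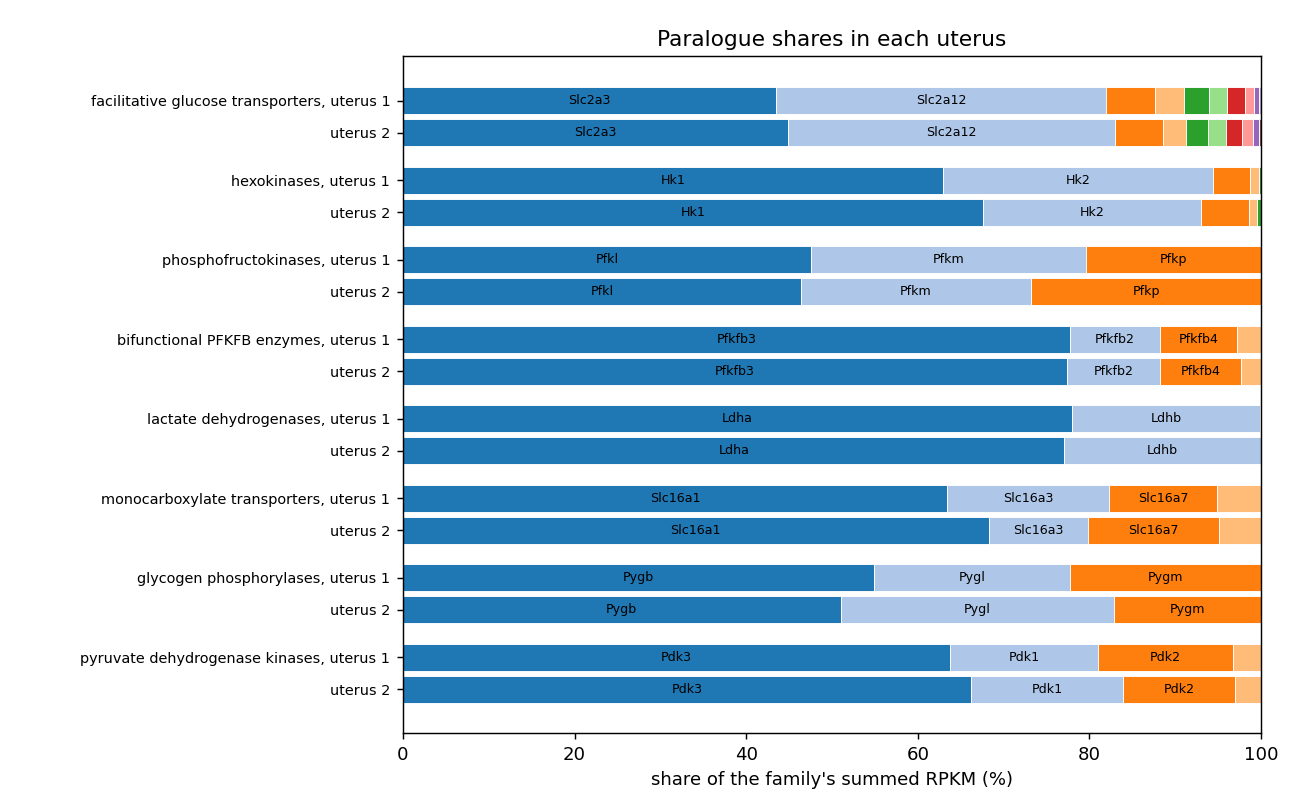
Bars give each gene's share of its family's summed RPKM (%) in uterus 1 and uterus 2, for 8 families, with narrow segments unlabelled. The leading gene was the same in both uteri in each of the 8 families drawn (the enolases, not drawn, differed), from Slc2a3 at 44.2% to Pfkfb3 at 77.6% on average.

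Glycogen is the uterus's own glucose store. Gys1, the muscle-type glycogen synthase, stood at 8.86 and 7.47 RPKM, and the liver form Gys2 was listed at 0. All 3 glycogen phosphorylases, which release glucose 1-phosphate, were present. Pygb, the brain form, stood at 39.4 and 35.8 RPKM and held 52.9 ± 2.73% (SD, n = 2) of the family. Pygl, the liver form, stood at 16.5 and 22.3, and Pygm, the muscle form, at 16.0 and 12.1. Pygl and Pygm were level in uterus 1 and apart in uterus 2. Of the 24 other glycogen genes, 21 reached 1 RPKM in both uteri. Ugp2, which makes UDP-glucose, stood at 50.6 and 65.0 RPKM, Pgm5, a phosphoglucomutase relative of muscle adhesions, at 42.3 and 42.1, and the lysosomal glucosidase Gaa at 42.7 and 40.2.

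G6pdx, the X-linked entry enzyme of the pentose phosphate pathway, stood at 30.7 and 29.01 RPKM. Of 10 other genes of that pathway, 8 reached 1 RPKM in both uteri. Its most abundant were the transketolase Tkt at 72.1 and 79.1 RPKM, the transaldolase Taldo1 at 64.6 and 76.6 and the lactonase Pgls at 43.7 and 38.3, and Tktl2 was listed at 0. Of the 6 genes on the gluconeogenesis list, 2 reached 1 RPKM, Pck2 at 17.95 and 15.8 and G6pc3, with a mean of 13.6. Pck1, which commits carbon to glucose in liver, stood at 0.399 and 0.898, and G6pc, which frees glucose in liver, was listed at 0. Of 6 genes of polyol and fructose metabolism in the table, 4 reached 1 RPKM. Akr1b8 led at 17.6 and 17.8, before the ketohexokinase Khk at 15.4 and 14.7 and the sorbitol dehydrogenase Sord at 10.6 and 12.8. Akr1b3, the aldose reductase itself, was listed at 0, and 84.97% of its windows were found elsewhere; whether that set the 0 was not tested. The isoenzymes absent from the 39 genes were mostly low: 8 of 17 reached 1 RPKM, led by the mitochondrial phosphatase Pgam5 at 21.3 and 17.6, the inositol phosphatase Minpp1 at 15.8 and 16.8, and Adpgk at 17.5 and 12.6, while Pgk2 and Gckr were listed at 0.

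The 2 uteri gave close values for these genes. Ratios were taken as log2 of RPKM plus a pseudocount of 0.1, uterus 2 over uterus 1, for genes averaging 1 RPKM or more. Of the 35 members that met this, none was 2-fold apart, as were 2.6% of all such genes. The member ratios ran from -0.75 for Slc16a3 to 0.81 for Aldoc, both on few reads, with 14 members higher in uterus 2 and 21 lower. Their median was -0.05 and that of all genes 0.000667. The median size of the ratio, sign aside, was 0.12 for members and 0.17 for all genes. Among those averaging 10 RPKM or more it was 0.08 for 21 members and 0.13 for 7311 genes. Higher levels rest on more reads, and the members lie higher than the median gene.

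**Figure D4:**
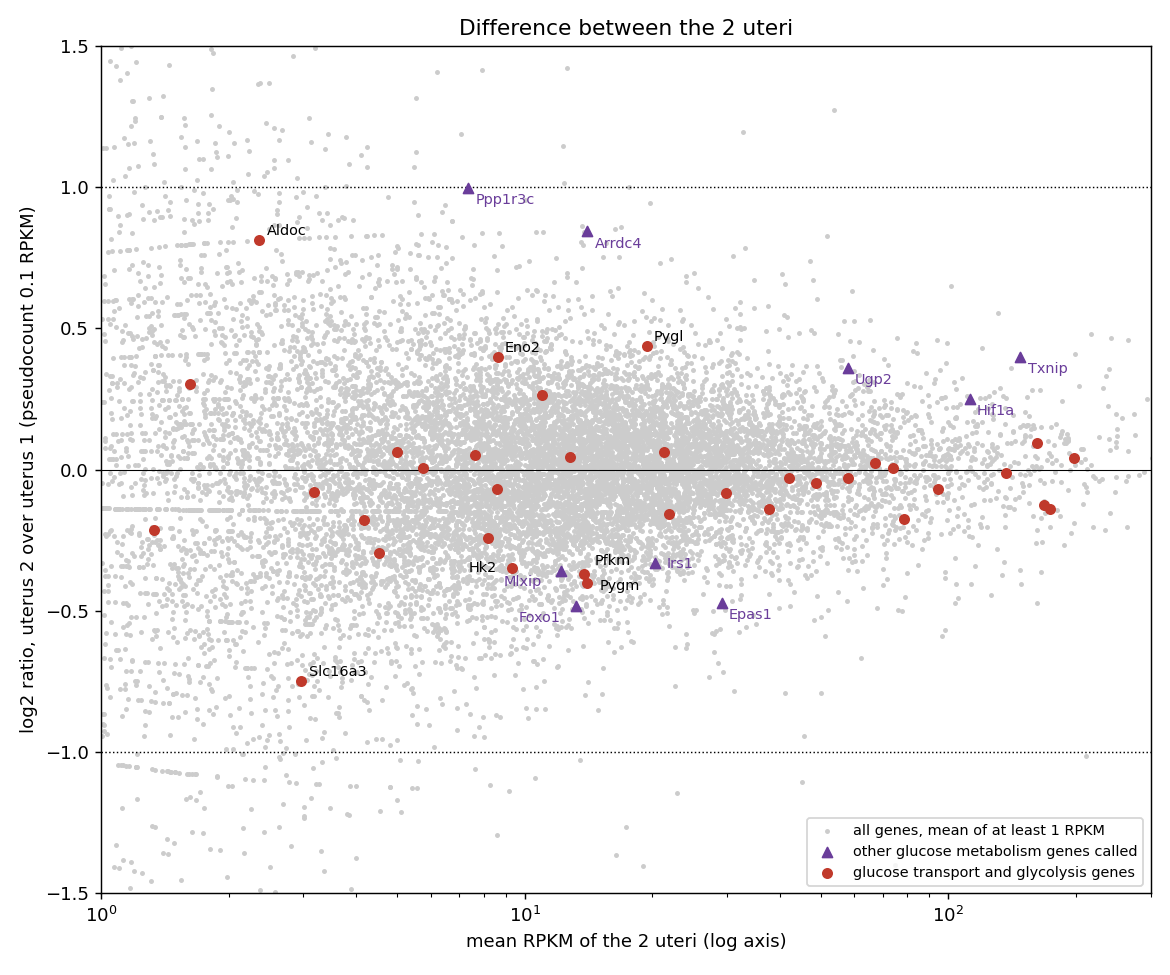
The log2 ratio of uterus 2 over uterus 1 (pseudocount 0.1 RPKM) against mean RPKM on a log axis, for 13364 genes averaging 1 RPKM or more; 283 genes lie beyond the axes. Circles are members, triangles the other genes of glucose metabolism that passed the read test, and the dotted lines, 2-fold, hold every member drawn between them.

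The recovered reads of each gene were then compared by a two-sided exact binomial test against the library totals, with Benjamini-Hochberg adjustment over 15129 genes. The test compares these 2 libraries and covers counting error only; it says nothing of day 4 uteri in general. It called 4.74% of all genes tested (2.19% of all genes tested were called higher in uterus 2) and 1 of the 37 members tested. That member was Pygl, at chr12:71291802-71328670. It had 178 reads in uterus 1 and 268 in uterus 2, a ratio of 1.36 after scaling (95% counting interval 1.12 to 1.65), with p = 0.00172 and adjusted p = 0.0391 in the exact binomial test. The gland markers given above were higher in the same uterus, and the 5 liver markers summed to 12.03 and 10.2 RPKM, from Cyp2e1 at 6.01 and 4.06 to Apoa1 at 0 in both. Other markers passed the same test, 3 of 9 for epithelium, 3 of 8 for stroma, 2 of 6 for smooth muscle and 1 of 5 for endothelium, and are named here after their values were seen. Krt18, Ltf, Vim, Dcn and Myh11 were higher in uterus 2. Cldn4, Col1a1, Acta2 and Kdr were lower, Col1a1 at 1184 and 851 RPKM. The part of these cells in the Pygl difference was not tested.

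At an unadjusted p under 0.05, 7 of 37 members differed, against 15.7% of all genes tested. Beside Pygl these were Pygm, Hk2, Pfkm, Slc16a3, Pgk1 and Gapdh, all lower in uterus 2, and none of the 6 passed the adjustment. At the larger multiple of its reads, Ldha would be another, with an unadjusted p of 0.0285 in the exact binomial test. Pygm had 174 and 146 reads and Hk2 had 221 and 192, each with an adjusted p of 0.156 in the exact binomial test. With the smallest whole reads that could give the deposited values, it was 0.451 for Pygm. The place of Pygm among the 7 thus also rests on the multiple of reads used. Pygl was thus higher and Pygm lower in uterus 2, and the difference between their ratios was not tested. Of the 8 skeletal muscle markers, 4 were higher in uterus 2 and 1 was lower. Among these, Myh4 had 1 read, in uterus 2, and Myh1 had 1 read, in uterus 1. Smooth muscle had 4 of 6 markers higher in uterus 2 and 2 lower. The part of muscle cells in the values of Pygm and Pfkm was not tested.

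Outside the 39 genes, the lists of glucose metabolism held 132 symbols, of which 128 were in the table. The rest, Brp44l, Brp44, Tkfc and Tigar, are other names of Mpc1, Mpc2, Dak and 9630033F20Rik, which were in the table. There, 94 of the 128 genes (73.4%, against 58.4% of all genes) reached 1 RPKM in both uteri. Of the 97 that averaged 1 RPKM or more, 2 were 2-fold apart (2.6% among all genes), both low: Ldhal6b at 1.80 and 0.488, and Akr1b7 at 1.67 and 0.753. The read test called 9 of 108, of which 5 were higher in uterus 2, beside 4.74% called and 2.19% called higher among all genes tested. Apart from Txnip and Hif1a, which are among the 3 most abundant regulators, and Ugp2, these genes were chosen after their values were seen. Txnip, which lowers glucose uptake and is itself induced by glucose, stood at 127 and 168 RPKM. Its ratio was 1.32 (95% counting interval 1.23 to 1.41) and its adjusted p = 5.7e-13 in the exact binomial test. Its relative Arrdc4 stood at 10.02 and 18.1, with a ratio of 1.80 (1.48 to 2.20). Both are known targets of the glucose sensor Mlxip, which was lower in uterus 2, at 13.7 and 10.7 RPKM.

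Hif1a, the oxygen-regulated activator of many glycolytic genes, stood at 103 and 122 RPKM, with a ratio of 1.19 (95% counting interval 1.12 to 1.26). Epas1, the related factor, lay the other way, at 33.9 and 24.4, with a ratio of 0.721 (0.643 to 0.807). Beside it, the endothelial Kdr was lower in uterus 2, at 22.9 and 16.6 RPKM (adjusted p = 0.000188 in the exact binomial test), while the other 4 endothelial markers were not called, Pecam1 among them. The part of these or the other marked cells in the regulators' differences was not tested. The insulin receptor substrate Irs1 stood at 22.7 and 18.001, and Foxo1, a factor that insulin signalling holds out of the nucleus, at 15.4 and 11.003. Akt1, the third of the most abundant regulators, stood at 79.4 and 70.5 and was not called. Ugp2 had a ratio of 1.29 (1.16 to 1.43). Ppp1r3c, which anchors the phosphatase that switches glycogen synthase on, stood at 4.87 and 9.83, on 50 and 112 reads. With the smallest whole reads that could give the deposited values, adjusted p in the exact binomial test was 0.0756 for Ppp1r3c and 0.346 for Foxo1, so these calls were lost. The other 7 passed under that setting too.

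The promoters of the 39 genes were searched for ACGTG, the core that hypoxia-inducible factors and several E-box factors share, on both strands (read as ACGTG or CACGT, which overlap in CACGTG and were then counted on each strand). The RefSeq promoters of build GRCm38.p6 were used, each 300 bases, from 250 before the start to 50 after it. A promoter was found for 37 members, and the first one listed for each gene was searched. It held the letters in 19 members (51.4%), in 19.7% of all genes, and in 25.6% of the 9961 genes averaging 1 RPKM or more. At least 2 matches were found in 8 members (21.6%), 8.31% of all genes and 11.8% of those at 1 RPKM. A match is a description of letters and not a bound site.

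Ldha had 5 matches, the most of any member, and Slc16a1 and Pfkm had 3 each. Slc2a3 and Slc2a4 had no entry, and Slc2a12, Aldoa, Tpi1 and Pkm had no match in the first listed promoter. At other listed starts, Aldoa had 1 match, in a stretch that 2 overlapping promoters share, Pkm had 2 in its second, and the second of Ldha had 0. The first listed promoters of the lactate enzymes and of their carrier Slc16a1 are shown as the highest count among the members, the next, and a case of 0. Slc16a3, the other lactate carrier, had 2. Counts and levels were not compared by a test. The sequences run 5′ to 3′ on the gene's strand, with the matches in capitals.
Ldha (chr7:46845554-46845853, + strand): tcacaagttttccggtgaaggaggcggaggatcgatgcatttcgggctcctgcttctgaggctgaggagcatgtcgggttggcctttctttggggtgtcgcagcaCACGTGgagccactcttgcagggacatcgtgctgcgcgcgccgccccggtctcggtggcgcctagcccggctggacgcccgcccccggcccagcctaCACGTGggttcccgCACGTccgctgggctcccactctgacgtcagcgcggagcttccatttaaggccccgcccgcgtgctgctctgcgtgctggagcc
Slc16a1 (chr3:104638414-104638713, + strand): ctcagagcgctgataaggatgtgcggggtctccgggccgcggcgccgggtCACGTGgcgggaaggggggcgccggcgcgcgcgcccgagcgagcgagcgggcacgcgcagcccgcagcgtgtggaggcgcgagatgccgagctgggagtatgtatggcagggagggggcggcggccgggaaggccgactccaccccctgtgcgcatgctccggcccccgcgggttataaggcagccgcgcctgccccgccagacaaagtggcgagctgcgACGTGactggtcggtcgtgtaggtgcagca
Ldhb (chr6:142507908-142508207, - strand): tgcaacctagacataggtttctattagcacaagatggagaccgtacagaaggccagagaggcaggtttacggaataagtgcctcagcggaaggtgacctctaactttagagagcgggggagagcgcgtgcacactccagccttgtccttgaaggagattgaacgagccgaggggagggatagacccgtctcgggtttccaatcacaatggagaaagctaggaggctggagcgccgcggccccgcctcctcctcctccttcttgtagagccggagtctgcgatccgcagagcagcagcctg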

How the data were processed

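Poly-A RNA of 2 whole uteri was sequenced on a HiSeq2500 from TruSeq libraries, per the labels' protocols and the series' design text. The authors deposited gene levels as RPKM, per the labels. The submitters' processing notes name TopHat, edgeR and mm9 without roles. The counter, annotation release, treatment of multiply placed reads and strand are not given in the sources used here. A main table of 22740 genes and an annotated table of 23366 rows held identical values for all 22740 shared genes.

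Whole reads were recovered from the steps between low RPKM values. The ratio of the libraries came from the commonest ratio of low values, the total from single-exon genes, and each gene's reads from the multiple whose length lay nearest its annotated transcript, with a penalty on large multiples. That penalty was added after a simpler rule gave sums above the scaling totals of 3834174 and 4256101 reads. Of the single-exon values above 0, 95.3% of 527 and 94.4% of 533 were whole within 0.001 reads. The exact binomial test used genes with at least 6 reads in sum, called those with adjusted p under 0.05, and was tested on simulated data. SDs are over 2 animals, and p-values measure counting error only.

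Detection meant 1 RPKM in both uteri. Copied windows were exact matches in NCBIM37. Windows were printed from the coding part of 5 genes with over 10% copied, leaving out windows also found on chromosome 18. All 39 members were named, and from each pathway list the 3 most abundant genes, those 2-fold apart and those listed at 0, and from each marker list the highest and lowest. Some items are not reported here. The members and lists were chosen with earlier results of these data known. Python 3.11.15, NumPy 2.4.6, pandas 2.3.3 and SciPy 1.17.1 were used.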

Additional observations from a re-analysis of the deposited data

How the results depend on the processing

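No paired analysis was possible because the samples form a single group. The count of members detected ran from 32 to 36, and the median ratio and the read test of the 37 members tested (Slc2a2 and Eno1 were not, nor Slc2a5 with the smallest whole reads) kept their direction and call under the other thresholds, pseudocounts, scalings and read multiples tried. With no filter on low values, 1 member was 2-fold apart, Slc2a2, which was listed at 0 in uterus 1 and had 3 reads in uterus 2. Over genes with NM_ identifiers alone, the members made up 0.433% of the summed RPKM in place of 0.368%. Shares of reads in place of RPKM, which are not per length, moved 24 paralogue shares by more than the SD. The TPM scale moved 37 member levels by its change of unit, and the annotated length, tried after seeing the data as were the windows of 36 and 100 bases, moved 12, with the multiple of reads unsettled for Aldoa and Ldha. The adjusted p of Pygl ran from 0.0391 to 0.0451. The depth limits the members under 5 RPKM, whose ratios rest on few reads, and leaving out either uterus leaves no difference to test.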
